A study of Homo sapiens with 6 samples.

Results

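NRF2 target genes and enzymes of xenobiotic metabolism were read in A549, an established cell line from a human lung adenocarcinoma. The cells had received a miR-608 mimic, a miR-552-3p mimic or, as the control, a negative control mimic, and their RNA was taken 24 h later. All 3 groups share the cell line and the lipid transfection, and each holds 2 Illumina bead arrays, 6 in all. No label states that arrays within a group represent separate cultures, so p-values reflect only the spread among these samples, and that spread may be technical. The list holds 38 genes, chosen as members of the pathway and read through every probe whose platform symbol matched. Of these, 34 had 54 probes, and 48 probes of 33 genes passed detection (detection p under 0.05 on at least 2 arrays), out of 11817 named genes and 20749 probes that passed in all. No probe used here was listed for FTH1, OSGIN1, AKR1B1 and ABCC1, and the probe of AKR1C1 was not detected on any array. Of the 48 probes, 45 were detected on every array. AOX1 passed only through the miR-552-3p arrays, where it was high.

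NRF2, encoded by NFE2L2, is a transcription factor that pairs with small MAF proteins such as MAFG on antioxidant response elements. KEAP1 holds it in the cytoplasm and hands it to the ubiquitin system until oxidants or electrophiles modify KEAP1. Its targets make glutathione, recycle thioredoxin, supply NADPH, reduce quinones and carbonyls, and export conjugates from the cell. A549 carries a mutant KEAP1 and is known for a high activity of this pathway without any inducer.

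The mature microRNAs that the mimics represent are shown with their seed, bases 2 to 8, in capitals, because the seed is what mainly sets which transcripts a microRNA silences. The sequences are those of RefSeq (GRCh38.p14), and miR-608 lies at chr10:100975000-100975024 on the plus strand and miR-552-3p at chr1:34669614-34669634 on the minus strand.
miR-608: aGGGGUGGuguugggacagcuccgu
miR-552-3p: aACAGGUGacugguuagacaa
The seeds differ, GGGGUGG for miR-608 and ACAGGUG for miR-552-3p. Matches to them in the transcripts of the 38 genes were not analysed here.

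Promoter windows of 300 bases, 250 before and 50 after a transcription start, were listed by RefSeq for 28 of the 38 genes. They were searched on both strands for TGACNNNGC, the core of the antioxidant response element. The core was found in the windows of 10 of these genes (35.7%), against 16.1% of all 27305 genes with a window. Those 10 were KEAP1, GCLM, GPX2, GSTP1, TXNRD1, PGD, ME1, IDH1, CBR1 and EPHX1. Among genes called below, NFE2L2, GCLC, NQO1, SRXN1, ABCC2, AOX1 and AKR1C3 had a window without the core. SLC7A11, HMOX1, ABCC3 and ALDH3A1 had no listed window. Runs of 3 of the 10 genes with a core are shown, chosen from those called below. The 9 bases of the core are in capitals, read along the strand of the gene. A core on the other strand therefore appears reversed and complemented.
GCLM: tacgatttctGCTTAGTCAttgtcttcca
TXNRD1: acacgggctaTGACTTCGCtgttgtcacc
TXNRD1, other start: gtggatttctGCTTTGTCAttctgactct
IDH1: cccctctcgcTGACTCCGCccatcccacg
The GCLM run is chr1:93909446-93909474 on the minus strand, with the core at positions -34 to -26 from the start. The TXNRD1 runs are chr12:104215670-104215698 and chr12:104286920-104286948 on the plus strand, with cores at -99 to -91 and -102 to -94. The first TXNRD1 window holds a further core, at -8 to 0 on the other strand, which is not printed. The IDH1 run is chr2:208255196-208255224 on the minus strand, at -143 to -135. A match in these letters is a description and does not show that NRF2 binds there.

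The arrays differed little in brightness, with median signals of 182 to 201 and 18550 to 19758 probes detected per array. Arrays of the same group correlated at 0.993 to 0.994 and arrays of different groups at 0.968 to 0.978 (Pearson, over probes, not independent of each other). On the normalized log2 scale the 48 probes varied little within groups, with a median SD of 0.0452 with miR-608, 0.0440 with miR-552-3p and 0.0383 in the control. All 5 epithelial markers looked for were detected (EPCAM, KRT8, KRT18, KRT19 and CDH1). Of 7 alveolar type II markers SFTPD, LAMP3 and ABCA3 were detected and SFTPA1, SFTPB, SFTPC and NAPSA were not. Of 6 fibroblast and endothelial markers only COL1A1 was detected, and of 4 immune markers with a probe CD68 and CD14 were, while PTPRC and CD3E were not. The summed signal of the detected epithelial markers was 43303 to 43782 with miR-608, 30165 to 32993 with miR-552-3p and 36729 to 38152 in the control, and that of the detected immune markers was 2980 to 3535 with miR-608, 4703 to 5219 with miR-552-3p and 3603 to 4043 in the control. Markers within a sum differed in direction. CD68 had signals of 2593 and 2074 with miR-608, 4195 and 4737 for miR-552-3p, and 2519 and 2900 in the control, whereas CD14 had 942 and 906 with miR-608, 508 and 481 for miR-552-3p, and 1084 and 1143 in the control. With miR-552-3p the signals of KRT19 lay above the control and those of EPCAM and CDH1 below it. The part of these markers in the results was not tested. In bulk samples fewer cells of a type and less RNA per cell cannot be told apart.

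Signals below are those the authors deposited, in arbitrary linear units, from the brightest probe of a gene. Differences are log2 fold changes ± SE after background correction and quantile normalization, from limma over all 6 arrays, with 2 arrays per group. A gene was called at an adjusted p under 0.05 (Benjamini-Hochberg over all 20749 probes). Differences that were not called and were smaller than 0.1 are given without a direction.

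With miR-608, 7 of the 33 genes were called against the control, 5 higher and 2 lower. That is 21.2%, against 33.1% of all named genes (16.3% higher and 16.8% lower). A difference of at least 2-fold was called in 1 gene, SLC7A11, where 5.70% of all named genes had one. The median difference was 0.09 over the 33 genes and 0.02 over all named genes. The rises were those of SLC7A11, ABCC3, HMOX1, TXNRD1 and NFE2L2, and the falls those of ALDH3A1 and GCLC. SLC7A11, HMOX1, ALDH3A1 and ABCC3 were called under all 16 alternatives run, and the other 3 were lost in some. Without any 1 of the 6 arrays fewer genes were called with miR-608, among the 33 and among all named genes. With each array centred on its median in place of quantile normalization, a setting chosen after seeing the data, the count was 11. Of these, 10 were higher and 1 lower, where 35.2% of all named genes were called. The 10 include AOX1, which no miR-608 or control array detected, so its call there shows no rise.

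With miR-552-3p, 14 of the 33 genes were called, 4 higher and 10 lower, or 42.4% against 35.6% of all named genes (15.6% higher and 20.0% lower). AOX1, which passed the filter only through the group where it is high, is among them, and without it 13 of 32 genes were called, 3 higher and 10 lower (40.6%). Without AOX1, 1 gene, SLC7A11, was called with at least a 2-fold difference, where 7.13% of all named genes were. SLC7A11, ABCC2, AOX1 and SRXN1 rose. GCLM, GCLC, IDH1, ABCC3, NQO1, KEAP1, EPHX1, AKR1C3, ALDH3A1 and PGD fell. The calls of GCLM, SLC7A11, IDH1, ABCC2 and ABCC3 held under every alternative, and 8 were lost in some. AOX1 is left out of this, because the filter let it in only through the group where it is high. Without any 1 of the 6 arrays fewer genes were called with miR-552-3p, among the 33 and among all named genes. Which genes were called hung on the scaling. Median scaling gave 9 higher, AOX1 among them, and 4 lower, where 39.8% of all named genes were called. The 10 genes called lower kept a negative difference under median scaling. Of the 33 genes, 20 had probes among the 1182 brightest of the named genes, which is a property of the probe and not a transcript level. Among those 1182 the median difference between miR-552-3p and control was -0.01 after quantile normalization and 0.22 after median scaling.

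In the direct comparison of miR-608 with miR-552-3p, 13 of the 33 genes were called, 10 higher and 3 lower with miR-608, or 39.4% against 42.3% of all named genes (22.7% higher and 19.7% lower). Higher with miR-608 were ABCC3, GCLM, IDH1, HMOX1, NQO1, KEAP1, AKR1C3, PGD, GSTP1 and EPHX1, and lower were AOX1, ABCC2 and ALDH3A1. Without AOX1, 12 of 32 genes were called (37.5%), and 1 gene, ABCC3, by at least 2-fold, where 9.86% of all named genes were. The median difference was 0.19 over the 33 genes and 0.01 over all named genes. Without any 1 of the 6 arrays fewer genes were called between the mimics, among the 33 and among all named genes. Median scaling gave 8 higher and 8 lower, and normexp background correction 12 higher and 7 lower. AOX1 is among the lower genes in each. Of all named genes 42.7% were called with median scaling and 45.9% with normexp. No overlap between arrays was seen for 24 genes with miR-608 against control, 23 with miR-552-3p against control and 28 between the mimics. The shares over all named genes were 71.5%, 72.6% and 75.3%. AOX1 is in each of these counts. Both comparisons with the control share its 2 arrays, so their values are given side by side.

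**Figure D1:**
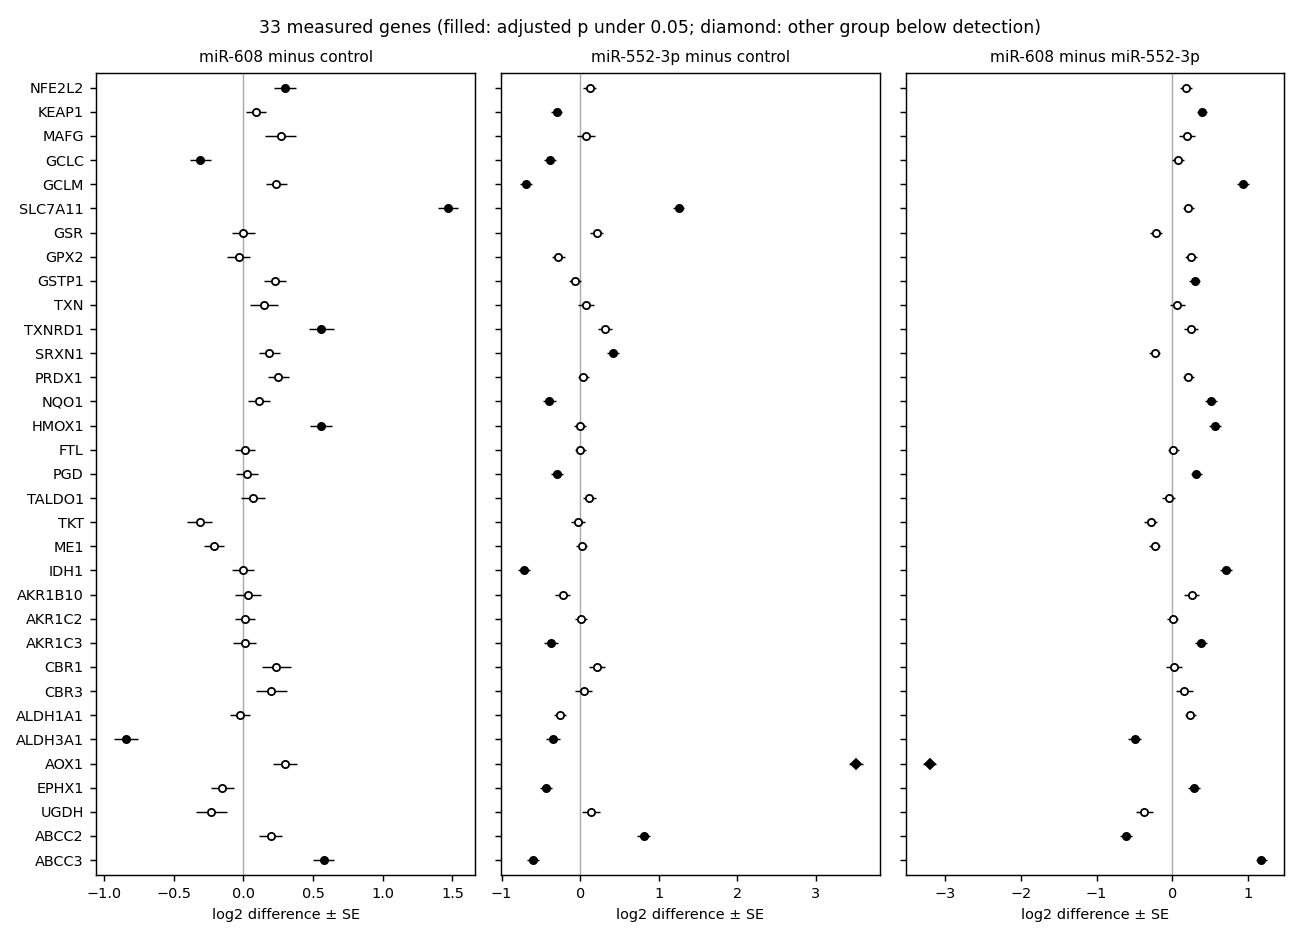
Log2 difference ± SE (horizontal axis) of each of the 33 measured genes (vertical axis, ordered by role) for miR-608 minus control, miR-552-3p minus control and miR-608 minus miR-552-3p, with 2 arrays per group. Filled points passed an adjusted p under 0.05, and diamonds mark AOX1, whose other group lay below detection, so that its fitted value is no bound. SLC7A11 stands to the right in both comparisons with the control, and ABCC3 is on opposite sides of 0.

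The sensor and the transcription factor moved little. NFE2L2, which encodes NRF2 itself, had signals of 6021 and 5443 on the miR-608 arrays, 5154 and 5021 on the miR-552-3p arrays, and 4714 and 5053 on the control arrays. The miR-608 arrays lay above the others, and NFE2L2 rose by 0.30 ± 0.08 (adjusted p = 0.0471). This call was lost on leaving out any 1 array (adjusted p between 0.0754 and 0.173). With miR-552-3p the difference was 0.12 ± 0.08 (adjusted p = 0.322), and it was called only with median scaling (0.30, adjusted p = 0.0456). KEAP1, the substrate adaptor that restrains NRF2, had signals of 1659 and 1614 on the miR-608 arrays, 1205 and 1244 on the miR-552-3p arrays, and 1599 and 1701 on the control arrays. The miR-552-3p arrays were the low ones, apart from both other groups. KEAP1 fell by 0.30 ± 0.07 with miR-552-3p (adjusted p = 0.0324), and its other probe was called too, at -0.41 ± 0.08. The fall was lost on leaving out any 1 array (adjusted p between 0.0601 and 0.122) and with median scaling (-0.23, adjusted p = 0.0614). Between the mimics KEAP1 was higher with miR-608 by 0.39 ± 0.07 (adjusted p = 0.0123). That call was lost without any 1 of the 4 mimic arrays (adjusted p up to 0.0618). MAFG, a small MAF partner of NRF2, had signals of 609 and 585 on the miR-608 arrays, 477 and 555 on the miR-552-3p arrays, and 571 and 560 on the control arrays, and was not called in any comparison (0.27 ± 0.11 with miR-608, adjusted p = 0.137).

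By the brightest probe of each gene, among the members detected in every group, SLC7A11 had the largest difference from the control with each mimic. It encodes the cystine carrier of the system xc- exchanger, which feeds glutathione synthesis. Its signals were 2196 and 2051 on the miR-608 arrays, 1770 and 1818 on the miR-552-3p arrays, and 909 and 944 on the control arrays. All 4 mimic arrays lay far above both control arrays. SLC7A11 rose by 1.47 ± 0.07, or 2.77-fold, with miR-608 (adjusted p = 0.00158) and by 1.26 ± 0.07, or 2.39-fold, with miR-552-3p (adjusted p = 0.00100). Between the mimics it differed by 0.21 ± 0.07 and was not called (adjusted p = 0.0727).

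GCLC and GCLM encode the catalytic and the modifier subunit of glutamate-cysteine ligase, the rate-limiting enzyme of glutathione synthesis. GCLC had signals of 5210 and 4621 on the miR-608 arrays, 4685 and 4760 on the miR-552-3p arrays, and 6129 and 6482 on the control arrays. Both mimic groups lay below the control. It fell by 0.31 ± 0.08 with miR-608 (adjusted p = 0.0400) and by 0.39 ± 0.08 with miR-552-3p (adjusted p = 0.0193). With median scaling neither was called (-0.20 with miR-608, adjusted p = 0.131, and -0.19 with miR-552-3p, adjusted p = 0.142). The miR-608 call was lost on leaving out any 1 array (adjusted p between 0.0743 and 0.154), and the miR-552-3p call when any 1 control or miR-552-3p array was (adjusted p up to 0.0856). The other GCLC probe, detected on 4 arrays, was not called.

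GCLM separated the mimics. Its signals were 10464 and 10634 on the miR-608 arrays, 5406 and 5814 on the miR-552-3p arrays, and 9094 and 9570 on the control arrays. The miR-552-3p arrays were the low group and the miR-608 arrays lay slightly above the control. GCLM fell by 0.69 ± 0.08 with miR-552-3p (adjusted p = 0.00356) and was at 0.24 ± 0.08 with miR-608 (adjusted p = 0.0758). It was higher with miR-608 than with miR-552-3p by 0.93 ± 0.08 (adjusted p = 0.00126). The other GCLM probe showed a larger fall with miR-552-3p, with signals of 762 and 769 on the miR-608 arrays, 339 and 319 on the miR-552-3p arrays, and 697 and 682 on the control arrays. On that probe the fall was 1.29 ± 0.10, or 2.44-fold (adjusted p = 0.00177).

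**Figure D2:**
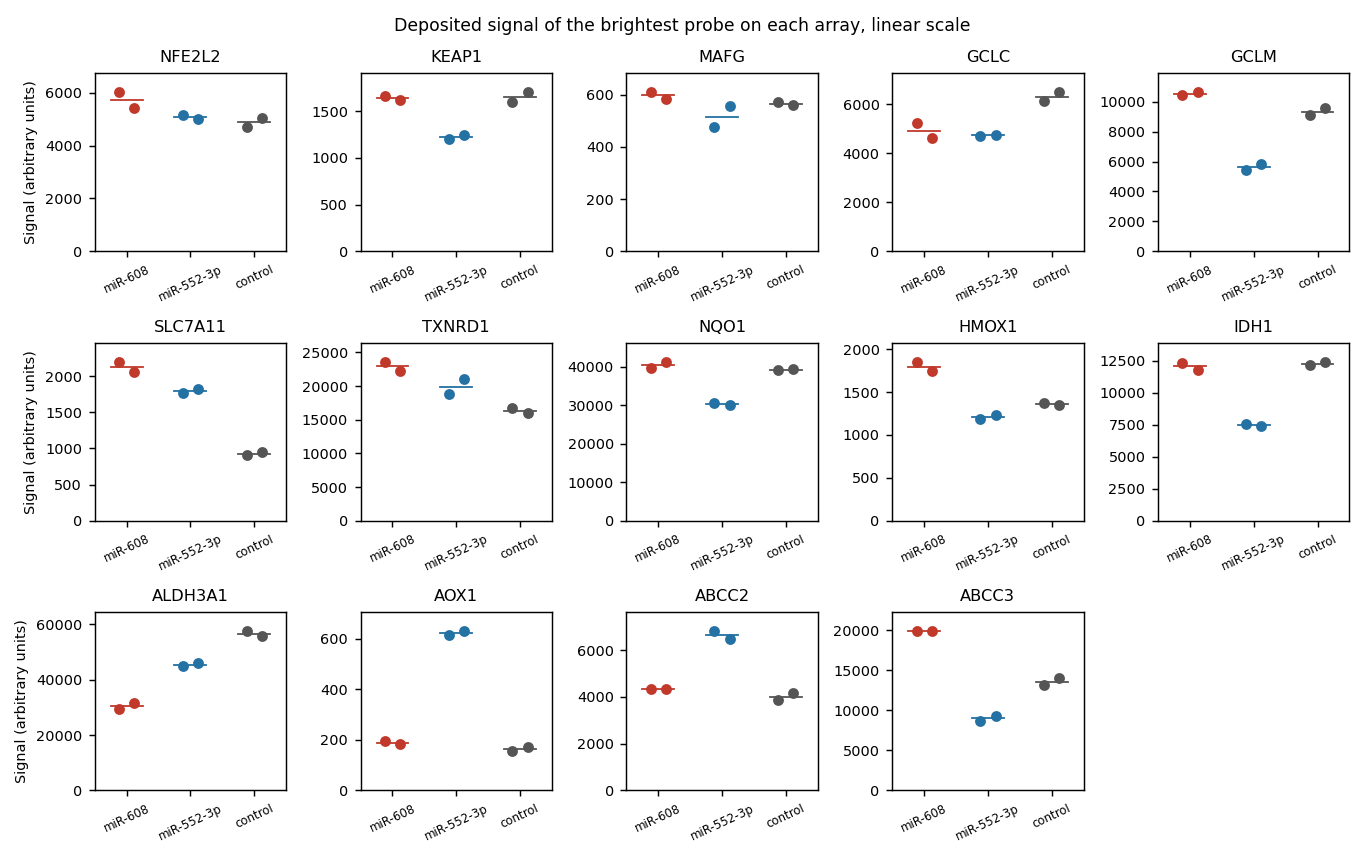
Deposited signal in arbitrary linear units (vertical axis, from 0) of the brightest probe of 14 genes on each array of the miR-608, miR-552-3p and control groups (horizontal axis). Points are arrays and lines are the means of 2 arrays. The mimic arrays of SLC7A11 all lie above the control, and the miR-552-3p arrays of GCLM and IDH1 lie below both other groups.

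Genes of glutathione use were not called against the control in the main fit. GSR, glutathione reductase, GPX2, a glutathione peroxidase of epithelia, and GSTP1, the pi class glutathione transferase, were measured. With miR-608 only GSTP1 lay beyond 0.1, at 0.23 ± 0.08 (adjusted p = 0.0880). With miR-552-3p GSR was at 0.21 ± 0.08 (adjusted p = 0.113) and GPX2 at -0.28 ± 0.08 (adjusted p = 0.0583). Of 10 alternatives other than leaving out 1 array, GSTP1 was called in 5 with miR-608. With miR-552-3p GPX2 was called in 5 of them and GSR in 3. GSTP1 was higher with miR-608 than with miR-552-3p by 0.29 ± 0.08 (adjusted p = 0.0379), and this was lost on leaving out any 1 array (adjusted p between 0.0660 and 0.151) and with median scaling (0.14, adjusted p = 0.297).

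In the thioredoxin system, TXNRD1, the cytosolic thioredoxin reductase, had signals of 23590 and 22266 on the miR-608 arrays, 18875 and 20980 on the miR-552-3p arrays, and 16705 and 16013 on the control arrays. The groups stood in that order without overlap. TXNRD1 rose by 0.56 ± 0.09 with miR-608 (adjusted p = 0.0117), and its other probe by 0.69 ± 0.08 (adjusted p = 0.00561). The first call was lost without control replicate 2 or miR-608 replicate 1 (adjusted p up to 0.0620). With miR-552-3p the brightest probe was at 0.31 ± 0.09 (adjusted p = 0.0540) and the other at 0.36 ± 0.08 (adjusted p = 0.0283), so that 1 of 2 was called. SRXN1, sulfiredoxin, which restores oxidized peroxiredoxins, had signals of 15030 and 14855 on the miR-608 arrays, 17377 and 17957 on the miR-552-3p arrays, and 12863 and 13802 on the control arrays. It rose by 0.42 ± 0.07 with miR-552-3p (adjusted p = 0.0124), a call lost without any 1 control or miR-552-3p array (adjusted p up to 0.0648). With median scaling it was 0.65. It was at 0.19 ± 0.07 with miR-608 (adjusted p = 0.121). The brightest probes of TXN, thioredoxin, and of PRDX1, a peroxiredoxin, were not called in any comparison of the main fit. The other probe of each was called higher with miR-608, at 0.31 ± 0.08 for TXN (adjusted p = 0.0456) and 0.35 ± 0.08 for PRDX1 (adjusted p = 0.0336). Of 10 alternatives other than leaving out 1 array, PRDX1 was called in 6 with miR-608 and in 4 between the mimics.

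HMOX1, the inducible haem oxygenase, had signals of 1852 and 1743 on the miR-608 arrays, 1192 and 1228 on the miR-552-3p arrays, and 1375 and 1353 on the control arrays. The miR-608 arrays were the high group. HMOX1 rose by 0.56 ± 0.08, or 1.47-fold, with miR-608 (adjusted p = 0.00796). With miR-552-3p it was within 0.1 of the control after normalization, although the deposited signals lay lower. It was higher with miR-608 than with miR-552-3p by 0.56 ± 0.08 (adjusted p = 0.00535).

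NQO1, the quinone reductase widely used as a readout of NRF2, had signals of 39798 and 41335 on the miR-608 arrays, 30677 and 30017 on the miR-552-3p arrays, and 39224 and 39393 on the control arrays. The miR-552-3p arrays stood below the others. NQO1 fell by 0.39 ± 0.08 with miR-552-3p (adjusted p = 0.0189) and was at 0.12 ± 0.08 with miR-608 (adjusted p = 0.332). The fall was lost without any 1 control or miR-552-3p array (adjusted p up to 0.0885) and with median scaling (-0.13, adjusted p = 0.301). The difference between the mimics was called under all alternatives, at 0.51 ± 0.08 (adjusted p = 0.00725). A dimmer NQO1 probe, at 362 to 494 on all 6 arrays, was not called. FTL, the ferritin light chain, was within 0.1 in all comparisons, but its brightest probe lay at 95.2% to 99.3% of the highest signal on the array. The brightest AKR1C2 probe lay at 91.1% to 95.6% of it, and the brightest probes of ALDH1A1, AKR1C3, AKR1B10 and ALDH3A1 reached 97% for ALDH1A1, 90.5% for AKR1C3, 90.2% for AKR1B10 and 85.9% for ALDH3A1 on at least 1 array. Whether differences at such brightness are compressed was not tested.

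Among the enzymes that supply NADPH, IDH1, the cytosolic isocitrate dehydrogenase, changed with miR-552-3p. Its signals were 12289 and 11796 on the miR-608 arrays, 7550 and 7360 on the miR-552-3p arrays, and 12136 and 12403 on the control arrays. The miR-552-3p arrays formed a separate low group, while the miR-608 and control arrays overlapped. IDH1 fell by 0.71 ± 0.08, or 1.64-fold, with miR-552-3p (adjusted p = 0.00330), and its other probe fell by 0.60 ± 0.10 (adjusted p = 0.0102). PGD, 6-phosphogluconate dehydrogenase of the pentose phosphate pathway, fell by 0.29 ± 0.08 with miR-552-3p (adjusted p = 0.0405), a call lost on leaving out any 1 array (adjusted p between 0.0722 and 0.162) and with median scaling (-0.05, adjusted p = 0.604). It was higher with miR-608 than with miR-552-3p by 0.32 ± 0.08 (adjusted p = 0.0274), likewise lost on leaving out any 1 array (adjusted p between 0.0533 and 0.121) and with median scaling (0.19, adjusted p = 0.0992). The transaldolase TALDO1, the transketolase TKT and the malic enzyme ME1 were not called in any comparison of the main fit. TKT was at -0.31 ± 0.09 with miR-608 (adjusted p = 0.0514). Of 10 alternatives other than leaving out 1 array, TKT was called in 6 with miR-608 and in 6 between the mimics. ME1 was called in 3 with miR-608 and in 6 between the mimics.

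Of the aldo-keto and carbonyl reductases 5 were measured. AKR1C3, which reduces ketosteroids and prostaglandins, had signals of 57340 and 57019 on the miR-608 arrays, 44563 and 45962 on the miR-552-3p arrays, and 54481 and 60250 on the control arrays. It fell by 0.37 ± 0.08 with miR-552-3p (adjusted p = 0.0270), and this was lost on leaving out any 1 array (adjusted p between 0.0531 and 0.117) and with median scaling (-0.10, adjusted p = 0.362). Between the mimics AKR1C3 differed by 0.38 ± 0.08 (adjusted p = 0.0217), which was lost without any 1 mimic array (adjusted p up to 0.0981). AKR1B10, CBR1 and CBR3 were not called in any comparison of the main fit. Of 10 alternatives other than leaving out 1 array, AKR1B10 was called in 3 between the mimics and CBR1 in 1 with miR-608. With miR-552-3p AKR1B10 was called only with an intensity trend.

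The kept probes assigned to AKR1C2 went different ways. AKR1C1, AKR1C2 and AKR1C3 are close paralogs, and which transcript each probe reads could not be checked here. The brightest AKR1C2 probe had signals of 60567 and 63456 on the miR-608 arrays, 63575 and 62389 on the miR-552-3p arrays, and 61285 and 62013 on the control arrays, and was within 0.1 in all comparisons. A dim probe had 330 and 299 on the miR-608 arrays, 492 and 508 on the miR-552-3p arrays, and 473 and 505 on the control arrays. On it AKR1C2 was lower by 0.87 with miR-608 (-0.87 ± 0.08, adjusted p = 0.00283) and higher by 0.31 ± 0.08 with miR-552-3p (adjusted p = 0.0377). A further probe was detected on 3 arrays only, both control arrays and 1 miR-608 array. It was called lower with miR-552-3p (-0.64 ± 0.18, adjusted p = 0.0470), the opposite call to that of the dim probe. Because no miR-552-3p array detected it, the size of that difference is uncertain. Because these probes disagree, AKR1C2 is uncertain.

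**Figure D3:**
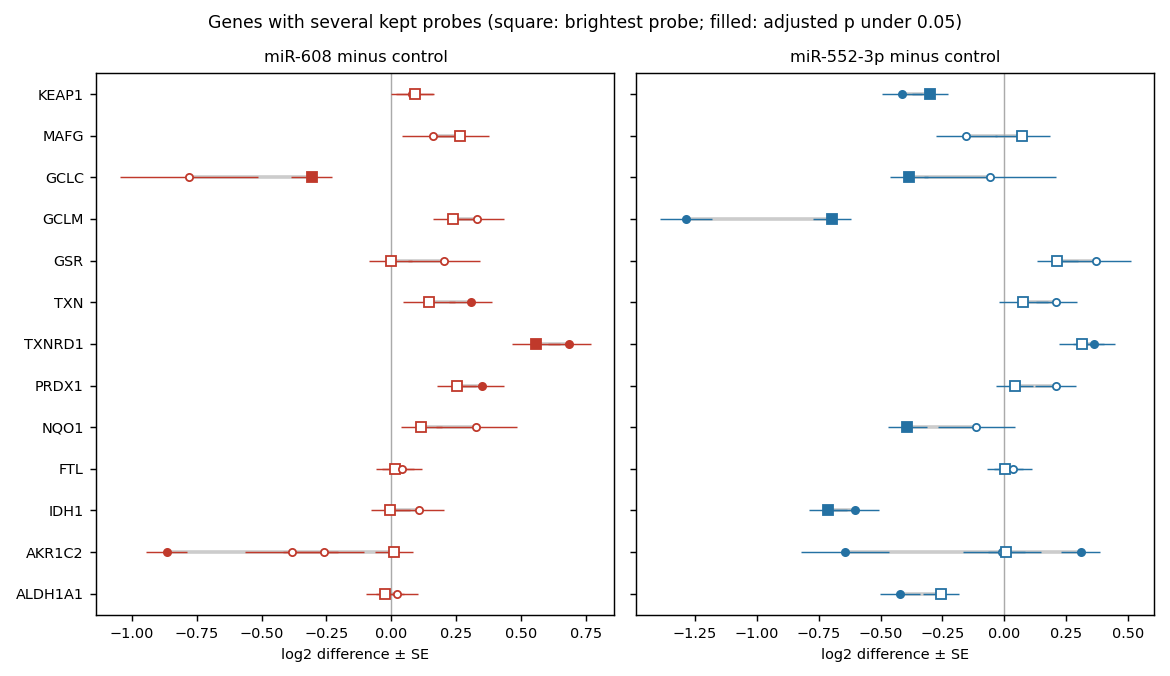
Log2 difference ± SE (horizontal axis) of every kept probe of the 13 genes with several kept probes (vertical axis), for miR-608 minus control and miR-552-3p minus control. Squares are the brightest probe of a gene, circles the others, and filled symbols passed an adjusted p under 0.05. Both probes of GCLM, KEAP1 and IDH1 were called lower with miR-552-3p, whereas the AKR1C2 probes lie on both sides of 0.

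Over the 13 genes with several kept probes, the probes gave the same call in 9 with miR-608, 8 with miR-552-3p and 9 between the mimics. Opposite calls occurred in AKR1C2 alone, with miR-552-3p, and 1 of them was on the probe that no miR-552-3p array detected. Over all 48 probes, 8 were called higher and 3 lower with miR-608, or 22.9% against 28.4% of all probes. With miR-552-3p, 6 were higher and 15 lower, or 43.8% against 30.9%. The 6 include the AOX1 probe, and the 15 include the AKR1C2 probe not detected with miR-552-3p. Between the mimics, 15 were higher and 4 lower with miR-608, or 39.6% against 36.5%, and the 4 include the AOX1 probe.

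Among aldehyde-handling and related enzymes, ALDH3A1, an aldehyde dehydrogenase that clears lipid peroxidation products, fell with both mimics. Its signals were 29306 and 31751 on the miR-608 arrays, 44831 and 46172 on the miR-552-3p arrays, and 57491 and 55666 on the control arrays. The miR-608 arrays were lowest and the control arrays highest, without overlap. ALDH3A1 fell by 0.84 ± 0.09, or 1.79-fold, with miR-608 (adjusted p = 0.00382). The fall of 0.34 ± 0.09 with miR-552-3p (adjusted p = 0.0374) was lost on leaving out any 1 array (adjusted p between 0.0513 and 0.148) and with median scaling (-0.07, adjusted p = 0.599). It was lower with miR-608 than with miR-552-3p by 0.50 (-0.50 ± 0.09, adjusted p = 0.0103), and this was lost without miR-608 replicate 1 or miR-552-3p replicate 2 (adjusted p up to 0.0551).

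AOX1 encodes aldehyde oxidase, which oxidizes aldehydes and nitrogen heterocycles. Its signals were 194 and 185 on the miR-608 arrays, 615 and 629 on the miR-552-3p arrays, and 158 and 173 on the control arrays. It was detected on both miR-552-3p arrays and on none of the others. The size of the difference hung on the background correction, and neither value is a bound. Between miR-552-3p and control the log2 difference was 3.51 as fitted and 2.03 without background correction. Between miR-608 and miR-552-3p it was -3.21 as fitted and -1.84 without background correction. AOX1 passed the detection filter through the miR-552-3p arrays alone, so its p-values are not given.

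EPHX1, the microsomal epoxide hydrolase, had signals of 1474 and 1322 on the miR-608 arrays, 1071 and 1167 on the miR-552-3p arrays, and 1635 and 1664 on the control arrays. It fell by 0.44 ± 0.08 with miR-552-3p (adjusted p = 0.0157), a call lost without any 1 control or miR-552-3p array (adjusted p up to 0.0794). The difference between the mimics, 0.28 ± 0.08 (adjusted p = 0.0479), was lost on leaving out any 1 array (adjusted p between 0.0804 and 0.184). UGDH, which makes the sugar donor of glucuronidation, was not called in any comparison of the main fit. Of 10 alternatives other than leaving out 1 array, UGDH was called in 6 between the mimics and in 1 with miR-608. ALDH1A1, a retinal dehydrogenase, was at -0.26 ± 0.07 with miR-552-3p on its brightest probe (adjusted p = 0.0516), and its other probe was called lower (-0.42 ± 0.08, adjusted p = 0.0158). The brightest probe was at 0.02 with median scaling.

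The efflux transporters ABCC2 and ABCC3, which export glutathione, glucuronide and sulphate conjugates, differed between the mimics in opposite directions. ABCC2 had signals of 4353 and 4337 on the miR-608 arrays, 6803 and 6483 on the miR-552-3p arrays, and 3846 and 4165 on the control arrays. The miR-552-3p arrays were high. It rose by 0.81 ± 0.08, or 1.75-fold, with miR-552-3p (adjusted p = 0.00305) and was at 0.20 ± 0.08 with miR-608 (adjusted p = 0.142). ABCC3 had signals of 19821 and 19831 on the miR-608 arrays, 8687 and 9261 on the miR-552-3p arrays, and 13153 and 13998 on the control arrays. The control arrays lay between the mimics and no groups overlapped. ABCC3 rose by 0.58 ± 0.08 with miR-608 (adjusted p = 0.00672) and fell by 0.60 ± 0.08 with miR-552-3p (adjusted p = 0.00493). With median scaling that fall was 0.36 on the log2 scale (-0.36, adjusted p = 0.0182). The mimics differed by 1.18 ± 0.08, or 2.26-fold higher with miR-608 (adjusted p = 0.000771). ABCC2 was lower with miR-608 by 0.61 (-0.61 ± 0.08, adjusted p = 0.00492).

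Other genes of the pathway were read from a list of 81, of which 66 were measured. With miR-608, 17 rose and 12 fell, or 43.9% called against 33.1% of all named genes, with a median difference of 0.10 against 0.02 over all named genes. With miR-552-3p, 11 rose and 19 fell, or 45.5% called against 35.6% of all named genes, with a median of -0.10 against -0.00 over all named genes. Between the mimics 29 were higher and 12 lower with miR-608, or 62.1% against 42.3% of all named genes. Of 14 measured phase I genes, 4 rose and 5 fell with miR-608 (64.3% called) and 1 rose and 5 fell with miR-552-3p (42.9%). Of 17 genes of glutathione and peroxide metabolism, 4 rose and 2 fell with miR-608 (35.3% called) and 1 rose and 4 fell with miR-552-3p (29.4%), near the 33.1% (miR-608) and 35.6% (miR-552-3p) of all named genes.

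The 8 with the largest called differences from the control are named here. MAFF, another small MAF protein, had signals of 530 and 467 on the miR-608 arrays, 334 and 353 on the miR-552-3p arrays, and 279 and 278 on the control arrays, without overlap. It rose by 1.55 ± 0.09 with miR-608 (adjusted p = 0.00163) and by 0.84 ± 0.09 with miR-552-3p (adjusted p = 0.00347). Without background correction the rises were 0.92 and 0.45. A dimmer MAFF probe, detected only on the miR-608 arrays, was called higher with miR-608 but not with miR-552-3p (0.50 ± 0.16, adjusted p = 0.0663). Another, detected on 1 array of each mimic, was not called with either. ABCB6, a porphyrin transporter, rose by 1.17 ± 0.08 with miR-608 (adjusted p = 0.00171) and by 0.28 ± 0.08 with miR-552-3p (adjusted p = 0.0459), the smaller rise being lost on leaving out any 1 array (adjusted p between 0.0671 and 0.154). ALDH1A3, a retinal dehydrogenase, rose with both mimics, by 1.15 ± 0.07 with miR-608 and by 1.31 ± 0.07 with miR-552-3p. The cytochrome P450 CYP2S1 fell by 1.45 ± 0.09 with miR-608 and by 0.83 ± 0.09 with miR-552-3p. CYP1B1, a P450 induced by aryl hydrocarbons, had signals of 4540 and 4085 on the miR-608 arrays, 2241 and 2200 on the miR-552-3p arrays, and 6113 and 5902 on the control arrays. It fell by 1.41 ± 0.09 with miR-552-3p (adjusted p = 0.00114) and by 0.44 ± 0.09 with miR-608 (adjusted p = 0.0235), and the miR-608 call was lost without any 1 control or miR-608 array (adjusted p up to 0.103).

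SLC40A1, the iron exporter ferroportin, had signals of 539 and 503 on the miR-608 arrays, 243 and 247 on the miR-552-3p arrays, and 587 and 623 on the control arrays. It fell by 1.90 ± 0.08, or 3.74-fold, with miR-552-3p (adjusted p = 0.000997) and was at -0.13 ± 0.08 with miR-608 (adjusted p = 0.268). Without background correction the miR-552-3p value was -1.14. ALDH3B1, an aldehyde dehydrogenase, fell by 1.29 ± 0.08 with miR-552-3p (adjusted p = 0.00112), and a dimmer probe of it, detected on 3 arrays, was not called. The drug transporter ABCG2, detected on both control arrays and on 1 of 2 arrays with each mimic, was at -1.17 ± 0.20 with miR-608 (adjusted p = 0.0125) and -1.41 ± 0.20 with miR-552-3p (adjusted p = 0.00642). The miR-608 call was lost without control replicate 1 or 2 (adjusted p up to 0.0679), and without background correction ABCG2 was at -0.58 with miR-608, while the miR-552-3p value was -0.69. SLC3A2, the heavy chain that partners SLC7A11, was chosen after its values were seen. Its signals were 17231 and 16458 on the miR-608 arrays, 9042 and 10315 on the miR-552-3p arrays, and 18041 and 18420 on the control arrays. It fell by 0.90 ± 0.08 with miR-552-3p (adjusted p = 0.00243), where SLC7A11 rose, and was within 0.1 of the control with miR-608.

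**Figure D4:**
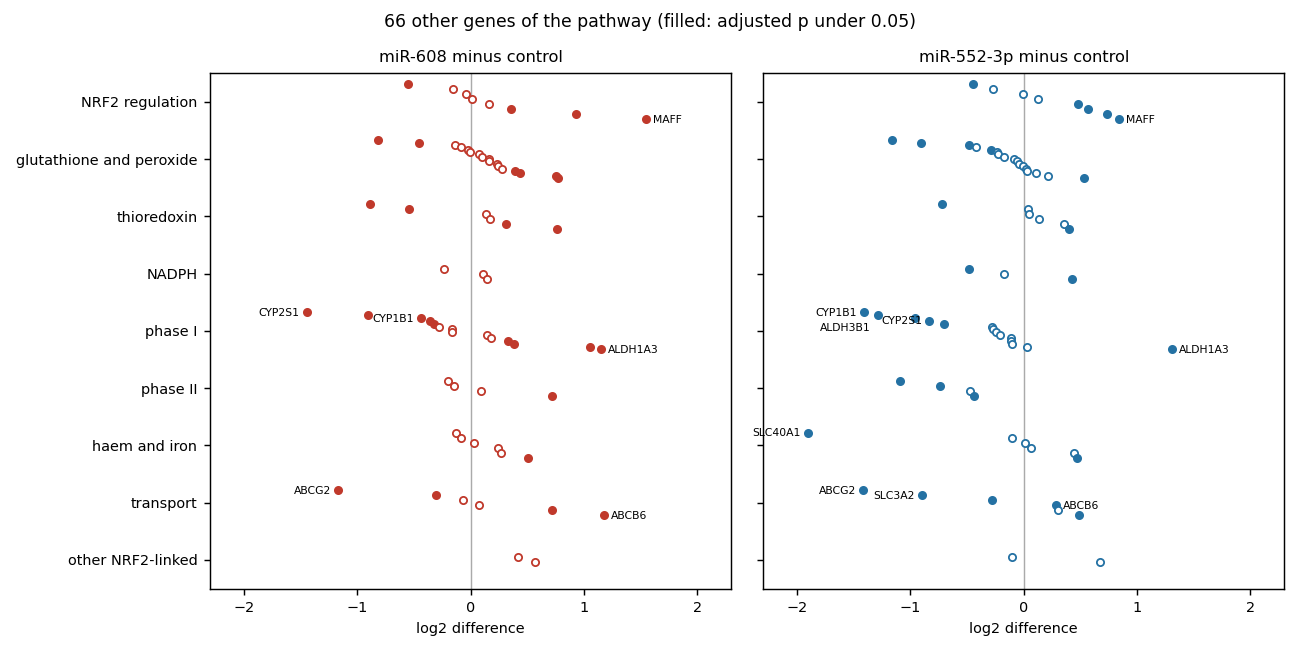
Log2 difference (horizontal axis) of the 66 other measured genes of the pathway, 1 point per gene by its brightest probe, grouped by role (vertical axis), for miR-608 minus control and miR-552-3p minus control. Filled points passed an adjusted p under 0.05. MAFF and ALDH1A3 lie to the right in both panels, and SLC40A1 lies farthest to the left with miR-552-3p.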

How the data were processed

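Per the submitters' processing notes, GenomeStudio 2011.1 was used. The deposited signals are linear average intensity values for 47319 probes. Beside each stands its detection p-value, per the file headers. Log2 values of 17751 probes were deposited by the authors too, namely of probes detected on at least 4 arrays. They share 1 distribution across arrays, and no source used here says how they were made or whether background was subtracted from the signals. Signals were background corrected from the detection p-values, offset by 16 and quantile normalized with neqc in limma 3.58.1 (R 4.3.3). The 20749 probes that passed detection (p under 0.05 on 2 or more arrays) were fitted in 1 model over all 6 arrays (lmFit and eBayes, 3 residual degrees of freedom, two-sided). Only the model fit was tested on simulated log2 values, and the background correction, normalization and filter were not. Symbols came from the platform annotation, which gives 1 symbol for 30112 probes and several for 8 and does not list 17199. Each gene was represented by the kept probe of highest mean. The rule gave array signals to genes called against the control with a log2 difference of at least 0.5 and to NFE2L2, KEAP1, MAFG, NQO1, GCLC, GCLM and HMOX1. Those of SRXN1, AKR1C2, AKR1C3 and EPHX1 were added after their values were seen. Of the other pathway genes, the 8 largest called differences were named. Alternatives changed the background correction, filter, scaling, model and arrays used. The number of arrays limits the precision. The members and lists were chosen with earlier results of these data known.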

Additional observations from a re-analysis of the deposited data

How the results depend on the processing

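In all, 16 alternatives were run, 15 planned and median scaling added after seeing the data. The count of called genes, 7 with miR-608, was 11 with no background correction, 12 with the authors' log2 values, 12 with detection on all 6 arrays, 16 with an intensity trend and 11 with median scaling, and 4 to 5 when 1 array was left out. With miR-552-3p the count was 14 (35.6%), and 7 with no detection filter (14%). Count and share were again both lower when 1 array was left out. Between the mimics it was 13, and 22, 23, 20 and 25 with no background correction, the authors' values, detection on all arrays and an intensity trend, and 7 to 10 when 1 array was left out. Calls were also gained. Of the uncalled genes with a difference beyond 0.1, 10 of 15 with miR-608 were called under some alternative. AOX1 is among these 10, although no miR-608 or control array detected it. With miR-552-3p it was 6 of 9, and between the mimics 12 of 14. How many of all named genes gained a call in this way was not counted. Median scaling turned AKR1B10 (0.045) and ALDH1A1 (0.022) with miR-552-3p, neither called. ABCG2 between the mimics lay between -0.045 and 0.53 when 1 array was left out. A replicate block gave 5, 11 and 10 calls in the same order, where 27%, 30.6% and 37.6% of all named genes were called. The deviations of same-numbered arrays from their group means correlated at -0.0215 to 0.0256, so the numbers were not taken as pairs. The causes were not tested. AOX1 had no value with the authors' data or with detection on all arrays.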
